A study of Mus musculus with 12 samples.

Results

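Histone methyltransferases and demethylases were taken as the 50 genes, of 24100 in the deposited table, whose symbols begin with Kmt, Setd, Kdm or Suv39h followed by their number or letter, together with Ehmt1, Ehmt2, Ezh1, Ezh2, Eed, Suz12, Dot1l, Nsd1, Ash1l, Smyd2, Smyd3, Prmt1 and Carm1. The single match on chromosome Y was left out. The choice rests on gene names and used no measured value. RNA was sequenced from primary cultures of entorhinal cortex (EC) neurons of C57BL/6J mouse embryos at embryonic day 17, transduced with adeno-associated virus (AAV, 1e+10 genome copies per ml) at 7 days in vitro and collected 4 days later. The 4 groups had 3 wells each: a hairpin against Dek under the U6 promoter with mCherry (silencing), a scrambled hairpin in the same vector design (scrambled), the mouse Dek cDNA with IRES-mCherry under the neuronal hSyn1 promoter (overexpression), and mCherry with WPRE under hSyn1 (empty vector). Each arm rests on a single construct, and all cultures carried mCherry and AAV1. The 12 libraries held between 15679567 and 18933382 estimated counts, and p-values measure the spread between wells, which may be technical.

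Methylation of histones is written by enzymes with a SET domain (and by Dot1l, which has none), or by protein arginine methyltransferases. It is removed by the amine oxidases Kdm1a and Kdm1b and by the larger family of Jumonji C (JmjC) demethylases. Methylation of H3K4 marks promoters and enhancers and that of H3K36 the bodies of transcribed genes, while H3K9 and H3K27 methylation accompany repressed chromatin, and H4K20 methylation is tied to chromatin compaction and the cell cycle. Mutations in many of these genes, among them Kmt2a, Kmt2d, Ehmt1, Kdm5c, Kdm6a and Nsd1, cause human neurodevelopmental disorders. Dek, the gene perturbed here, encodes a chromatin protein that binds DNA and histones.

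Dek itself followed the labels. It stood at 7.98, 6.65 and 8.62 CPM (counts scaled to library size with TMM factors) in the silenced wells against 35.2, 36.6 and 36.4 CPM in the scrambled wells (log2 fold change, log2FC, −2.23, SE 0.10, adjusted p = 1.31e-08 in edgeR). Under overexpression it reached 156, 129 and 143 CPM against 36.04, 38.8 and 41.1 CPM in the empty vector wells (log2FC 1.89, SE 0.078, adjusted p = 1.36e-08). Pan-neuronal markers summed to between 5700 and 7230 CPM in the 12 libraries and microglial markers to between 4.45 and 14.2 CPM, so neuronal transcripts were abundant in every well. Library profiles correlated at 0.989 to 0.995 within groups and at 0.962 to 0.969 between silenced and scrambled wells (Pearson r across genes, which are not independent replicates).

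With Dek silenced, 30 of the 50 members changed against the scrambled hairpin: 24 fell and 6 rose. Among all 14232 genes tested 54.7% were called, made up of 26.2% higher and 28.5% lower, and the members split into 12% higher and 48% lower, with a median log2FC of −0.18 beside −0.001 for all genes. The share of members called, 60.0%, was near that of all genes. The split by direction depended on scaling: 10 rose and 18 fell when libraries were scaled by their totals alone, which moves the share of higher genes among all calls from 47.9% to 59.9%, and 10 rose and 19 fell with an offset for GC content and transcript length. In these fits 56.2% and 56.8% of all genes tested were called. The 3 silenced and 3 scrambled wells did not overlap for 35 members, beside 61.9% of all genes, and 5 members (10.0%) passed a log2FC beyond 1, beside 10.5%. The writers (33 methyltransferases and PRC2 core genes) held 5 higher and 18 lower, and the 17 demethylases 1 higher and 6 lower. No member was called under overexpression, as described after the silencing results.

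**Figure D1:**
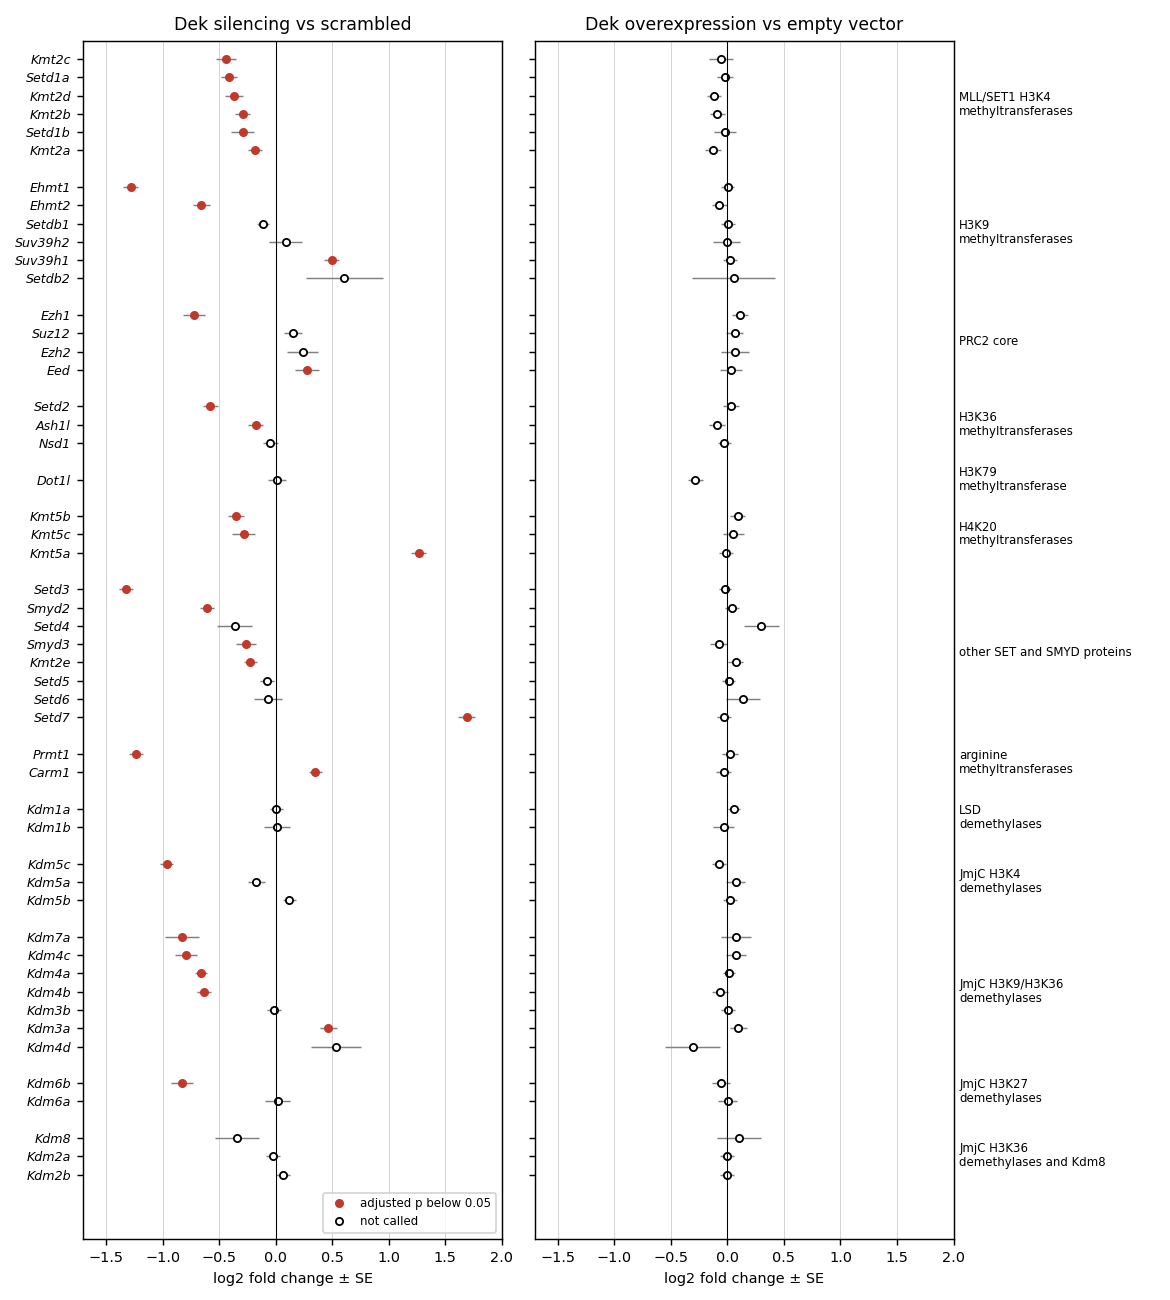
Log2 fold change (x axis, with SE) of each of the 50 members, grouped by role on the y axis, for Dek silencing against scrambled (left) and Dek overexpression against empty vector (right), 3 libraries per group. Filled points passed an adjusted p of 0.05 in edgeR: 30 members on the left, from −1.32 (Setd3) to 1.69 (Setd7), and 0 on the right, where values ran from −0.31 to 0.30.

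Setd7, a SET domain enzyme known to monomethylate H3K4 and many non-histone proteins, rose most. It stood at 235, 227 and 192 CPM in the silenced wells and at 69.9, 64.2 and 66.0 CPM in the scrambled wells, with 83.8 to 89.3 CPM in the empty vector wells. Every silenced well lay far above every other well of the study, and the rise was 3.23-fold (log2FC 1.69, SE 0.075, adjusted p = 1.18e-08). Setd7 lies on the minus strand at chr3:51515318-51560823 of GRCm38.

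Setd3, which methylates a histidine of actin rather than a histone residue, fell most. Its levels were 60.0, 54.3 and 58.5 CPM in silencing and 144, 145 and 139 CPM in scrambled, so the groups were far apart and silenced wells held 39.9% of the control level (log2FC −1.32, SE 0.058, adjusted p = 9.80e-09). The empty vector wells, at 142 to 148 CPM, lay beside the scrambled ones. Per kilobase of transcript, the log2 ratio of Setd7 to Setd3 within a library was 0.29 to 0.63 in silencing and −2.61 to −2.47 in scrambled, so that their order crossed. This pair and the other ratios below were picked after their values had been seen and are given as descriptions.

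Ehmt1 and Ehmt2 encode GLP and G9a, partners in the complex that lays down H3K9 mono- and dimethylation in euchromatin, and both fell. Ehmt1 measured 34.0, 31.2 and 30.7 CPM in the silenced wells against 74.2, 78.3 and 78.2 CPM in the scrambled wells (log2FC −1.28, SE 0.066, adjusted p = 2.59e-08). Ehmt2 measured 93.2, 99.9 and 112 CPM against 151, 165 and 161 CPM (log2FC −0.66, SE 0.073, adjusted p = 1.28e-05). No silenced well reached a scrambled well for either gene. Ehmt1 was also lower in scrambled than in empty vector wells (log2FC −0.29, adjusted p = 0.000337), so its distance from the empty vector was larger still, at −1.56.

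The other H3K9 writers did not follow them. Suv39h1, a trimethylase of constitutive heterochromatin, rose from 44.6, 48.2 and 50.5 CPM to 69.3, 68.8 and 66.2 CPM (log2FC 0.50, SE 0.065, adjusted p = 4.88e-05). Its close relative Suv39h2, at 5.66 to 7.39 CPM in those 6 wells, gave a log2FC of 0.09 (SE 0.14). Setdb1, the trimethylase recruited by KRAB zinc finger proteins through Trim28, gave −0.11 (SE 0.056, adjusted p = 0.108), and the scarce Setdb2 gave 0.61 with an SE of 0.34. Of this class of 6, then, 1 rose, 2 fell and 3 were not called.

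Prmt1 and Carm1 asymmetrically dimethylate arginines, Prmt1 chiefly H4R3 and Carm1 sites on the H3 tail, and they moved in opposite directions. Prmt1 had 80.5, 79.01 and 84.3 CPM in silencing and 179, 192 and 198 CPM in scrambled (log2FC −1.24, SE 0.059, adjusted p = 1.58e-08). Carm1 had 91.7, 94.9 and 92.2 CPM against 68.9, 71.2 and 76.5 CPM (log2FC 0.35, SE 0.059, adjusted p = 0.000348). The log2 ratio of Prmt1 to Carm1 per kilobase lay between 0.36 and 0.50 in silenced wells and between 2.00 and 2.06 in scrambled wells, with Prmt1 the higher throughout.

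The H4K20 enzymes split likewise. Kmt5a (also called Setd8), the sole H4K20 monomethylase and a gene regulated through the cell cycle, stood at 82.4, 76.2 and 82.9 CPM in silenced and 33.7, 34.3 and 31.6 CPM in scrambled wells (log2FC 1.26, SE 0.066, adjusted p = 2.94e-08). Kmt5b and Kmt5c, which add the second and the third methyl group, fell by 0.35 (adjusted p = 0.000897) and 0.28 (adjusted p = 0.0290) on the log2 scale, and Kmt5b gave −0.21 with the offset for GC content and length. Per kilobase, the log2 ratio of Kmt5a to Kmt5b was 0.74 to 0.85 in scrambled and 2.30 to 2.52 in silencing. The call of Kmt5c was lost in DESeq2 (adjusted p = 0.0809).

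Against the scrambled hairpin, markers of dividing cells were higher with Dek silenced, as was Kmt5a, while Kmt5b and Kmt5c were lower. Of 13 markers of dividing cells 6 rose and 0 fell, and their summed level was 141 to 172 CPM in silencing against 92.0 to 126 CPM in scrambled. Of 5 oligodendrocyte markers tested 4 rose and 1 fell, with sums of 83.0 to 90.1 CPM against 30.9 to 41.6 CPM, and 3 of 5 precursor markers rose, with sums of 92.5 to 199 CPM against 62.3 to 110 CPM. Of 9 pan-neuronal markers 1 rose and 6 fell, with sums of 5700 to 6250 CPM against 6800 to 6980 CPM. Of 8 astrocyte markers 0 were called, with sums of 489 to 834 CPM against 519 to 800 CPM. Apart from Slc1a2 (SE 0.062), the SE of these astrocyte markers ran from 0.33 to 0.86, so only large changes could have been called. Of 9 GABAergic markers 3 rose, among them Dlx2 (1.71) and Dlx5 (1.62), and 2 fell, Lhx6 (−1.63) and Sst (−0.66), with sums of 2570 to 2940 CPM against 2630 to 2840 CPM. Of 7 glutamatergic markers 1 rose, Slc17a6 (0.62), and 2 fell, Neurod6 (−0.81) and Camk2a (−0.51), with sums of 478 to 534 CPM against 511 to 618 CPM. Against the empty vector 5 of the 13 markers of dividing cells rose and 0 fell. Their median log2FC was 0.28 there and 0.97 against scrambled. Mki67 (0.23), Cdk1 (0.16) and Mbp (−0.10), called higher against scrambled, were not called against the empty vector. Between the controls 4 of the 13 were lower in scrambled wells and 1 was higher. Of oligodendrocyte markers 3 rose and 1 fell against the empty vector, and of precursor markers 2 rose. The part of these cell types in the changes of Kmt5a, Suv39h1 or any other member was not tested, and in bulk RNA fewer cells of a type and less RNA per cell cannot be told apart. Among endothelial and microglial markers Cldn5 was at 0 in all silenced wells and P2ry12 in all scrambled wells.

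**Figure D2:**
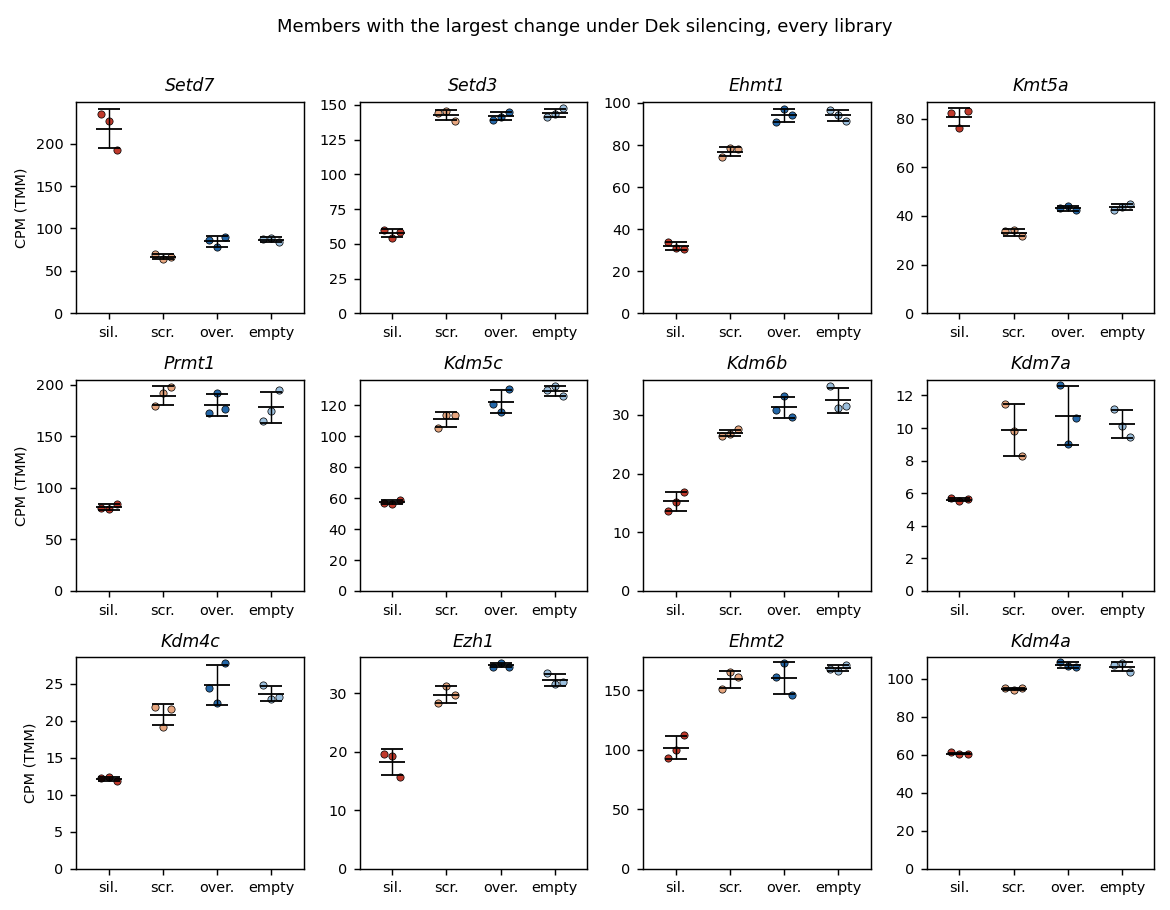
CPM (y axis, from 0) of the 12 called members with the largest absolute log2FC in silencing against scrambled, with 1 point per library, for silencing (sil.), scrambled (scr.), overexpression (over.) and empty vector (empty); the bars give the mean and SD of 3 wells. Setd7 and Kmt5a stand above all other wells in silencing and the other 10 genes below them.

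Polycomb repressive complex 2 (PRC2) trimethylates H3K27 through Ezh2 or Ezh1, the form typical of postmitotic cells, on a scaffold of Eed and Suz12. Ezh1 dropped to 19.7, 19.3 and 15.7 CPM from 28.3, 31.3 and 29.6 CPM in scrambled wells (log2FC −0.72, SE 0.098, adjusted p = 6.14e-05). Ezh2, at 8.72 to 8.99 CPM in silencing and 6.75 to 8.76 CPM in scrambled, gave 0.24 (SE 0.14, adjusted p = 0.167), and its groups overlapped. Per kilobase Ezh1 was the higher of them in all 12 wells, with a log2 ratio of 1.16 to 1.61 in scrambled and 0.26 to 0.56 in silenced wells.

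Of the scaffold genes, Eed passed narrowly (log2FC 0.28, adjusted p = 0.0398) and lost its call in DESeq2 (adjusted p = 0.0818), and Suz12 gave 0.15 (adjusted p = 0.136), or a called 0.297 with the offset (adjusted p = 0.00892). Among 7 accessory subunits of PRC2, 2 fell and 0 rose. These were Jarid2, a subunit that guides the complex to its sites, with 18.1, 18.0 and 19.04 CPM against 57.1, 49.8 and 54.7 CPM (log2FC −1.57, SE 0.079, adjusted p = 2.45e-08), and its partner Aebp2 (log2FC −0.68). The median of the 7 was −0.03.

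All 6 catalytic subunits of the MLL/SET1 complexes, the writers of H3K4 methylation, were lower with Dek silenced, by modest amounts, though Kmt2a turned to 0.04 with the GC and length offset. They were Kmt2c (log2FC −0.44), Setd1a (−0.41), Kmt2d (−0.37), Kmt2b (−0.29), Setd1b (−0.29) and Kmt2a (−0.18), with SE between 0.065 and 0.10. Kmt2d, for example, read 28.6, 33.2 and 30.4 CPM in silenced and 39.5, 40.2 and 38.3 CPM in scrambled wells. None of the 6 had overlapping groups, nor did 61.9% of all genes tested. Of all genes 28.5% were lower, and of those with transcripts over 8000 bases 44.5% were.

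This class lies among the longest transcripts studied, with a median of 11912 bases against 5083.5 for the 50 members and 3250 for all genes tested. With the offset for GC content and length, Kmt2b (−0.24), Kmt2d (−0.22) and Setd1a (−0.40) kept their calls, while Kmt2a (0.04, adjusted p = 0.614), Kmt2c (−0.18, adjusted p = 0.0702) and Setd1b (−0.23, adjusted p = 0.0551) lost them. Kmt2a and Setd1b also lost them in DESeq2 (adjusted p = 0.109 and 0.0756) and when single wells were left out (up to 0.0866 without scrambled replicate 3 for Kmt2a and 0.139 for Setd1b).

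Other subunits of those complexes changed in both directions. Of 13 listed, 6 rose (46.2%, beside 26.2% of all genes) and 3 fell (23.1%, beside 28.5%), and their median log2FC was 0.15. The difference between these subunits and the enzymes was not tested. Wdr82, a targeting subunit of the SET1 complexes, rose by 0.53, Paxip1 by 0.49 and Dpy30, part of the common core, by 0.47. The subunits that fell were Bod1l (−0.99), Psip1 (−0.47) and Hcfc1 (−0.34).

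Among the H3K36 writers, Setd2, the trimethylase that travels with elongating RNA polymerase, fell from 72.7, 77.3 and 83.6 CPM to 54.7, 50.6 and 52.9 CPM (log2FC −0.58, SE 0.068, adjusted p = 1.88e-05, and −0.34 with the offset). Ash1l gave −0.18 (adjusted p = 0.0366) and reversed to 0.09 with the offset, and Nsd1 gave −0.05 (SE 0.065), or a called 0.20 with the offset (adjusted p = 0.00595). Dot1l, the only H3K79 methyltransferase, gave 0.01 (SE 0.083), not called. Nsd2, a relative of Nsd1 that was not among the 50 genes, fell by 0.93.

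Of the 6 remaining SET and SMYD genes 3 fell and 3 were not called. Smyd2, which methylates p53 among other proteins, fell from 94.2, 97.2 and 94.1 CPM to 62.3, 59.6 and 67.6 CPM (log2FC −0.61, adjusted p = 6.97e-06). Smyd3 (−0.26) and Kmt2e (−0.22), a relative of the MLL genes without known catalytic activity, fell too, but with the offset they came to −0.10 and −0.04 and were no longer called. Setd4, Setd5 and Setd6 gave −0.36, −0.08 and −0.07 and were not called, and Setd4 gained a call with the offset (−0.48, adjusted p = 0.0191).

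On the erasing side, Kdm1a (LSD1) was not called, with 156, 156 and 138 CPM in silenced wells, 147, 151 and 145 CPM in scrambled wells and a log2FC of 0.01 (SE 0.059, adjusted p = 0.948). Kdm1b also gave 0.01 (SE 0.12). Of 12 partners of Kdm1a in the CoREST complex and its relatives, 3 rose and 6 fell. The repressor Rest, low in neurons, rose from 0.965, 1.37 and 1.303 CPM to 3.22, 3.87 and 2.39 CPM (log2FC 1.36, SE 0.26, adjusted p = 0.000932), and the scaffold Rcor1 rose by 1.22, while the deacetylase Hdac2 fell by 0.83.

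Kdm5c, an X-linked H3K4 demethylase, fell to 51.2% of its control level. It read 57.1, 56.0 and 58.9 CPM in silenced and 105, 114 and 114 CPM in scrambled wells (log2FC −0.97, SE 0.059, adjusted p = 9.27e-08). Its relatives Kdm5a (−0.17, adjusted p = 0.0775) and Kdm5b (0.12, adjusted p = 0.100) were not called, although their groups did not overlap. With the offset for GC content and length Kdm5b was called, at 0.30 (adjusted p = 0.000275), and Kdm5a came to 0.11 (adjusted p = 0.223). Per kilobase Kdm5c exceeded Kdm5b in every scrambled well, by a log2 ratio of 0.68 to 0.84, and lay under it in every silenced well, at −0.37 to −0.17.

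Of the 2 H3K27 demethylases, Kdm6b (JMJD3), an inducible enzyme, fell from 26.5, 26.8 and 27.5 CPM to 13.7, 15.2 and 16.9 CPM (log2FC −0.83, SE 0.096, adjusted p = 1.68e-05). Kdm6a (UTX), which is X-linked, gave 0.02 (SE 0.11), and its groups overlapped. Per kilobase the log2 ratio of Kdm6b to Kdm6a was 0.20 to 0.52 in scrambled wells and −0.69 to −0.14 in silenced ones, so these genes too changed their order.

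The JmjC demethylases of H3K9 and H3K36 held most of the remaining falls. Kdm4a read 61.1, 60.3 and 60.4 CPM in silenced and 95.0, 93.8 and 94.8 CPM in scrambled wells (log2FC −0.66, SE 0.053, adjusted p = 9.16e-07), and Kdm4b, with 69.7, 72.4 and 75.4 CPM against 109, 109 and 116 CPM, gave −0.63 (SE 0.059). Kdm4c, at lower levels of 12.2, 12.3 and 11.9 CPM against 21.8, 19.1 and 21.6 CPM, gave −0.80 (SE 0.095, adjusted p = 2.17e-05). The Kdm4 genes with broad expression therefore fell together, each to between 57.6% and 64.5% of its control level, whereas the scarce Kdm4d gave 0.53 (SE 0.22, adjusted p = 0.0552).

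Kdm7a, which acts on H3K9 and H3K27, read 5.69, 5.504 and 5.64 CPM against 11.5, 9.83 and 8.29 CPM (log2FC −0.83, SE 0.15, adjusted p = 0.000490, and −0.55 with the offset). Kdm3a, an H3K9 demethylase induced by hypoxia, was the single demethylase that rose, from 36.9, 36.8 and 35.5 CPM to 52.3, 54.3 and 45.7 CPM (log2FC 0.47, SE 0.077, adjusted p = 0.000287). Its relative Kdm3b gave −0.02 (SE 0.062). The H3K36 demethylases Kdm2a and Kdm2b gave −0.03 and 0.06, and Kdm8 gave −0.34 with an SE of 0.19, none of them called, though Kdm2a was called with the offset (0.14, adjusted p = 0.0465).

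Genes of the same pathways outside the 50 gave a mixed picture. Of 13 readers and cofactors of H3K9 methylation 3 rose and 6 fell, with a median of −0.21: Cbx5, which encodes HP1 alpha, fell by 1.34, Mphosph8, a subunit of the HUSH silencing complex, by 0.99, and Atf7ip, a partner of Setdb1, by 0.87. Of 16 other methyltransferases tested 2 rose and 5 fell, the latter led by Smyd5 (−1.08) and Nsd2, and Prmt6 rose by 0.49. Of 10 other JmjC genes 3 rose and 1, Phf8 (−0.72), fell.

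Levels were compared between members per kilobase of transcript (CPM per kb of the longest coding transcript, means of 3 wells). In empty vector wells they ran from 82.9 for Prmt1 through 58.5 for Smyd2, 52.4 for Setd3, 48.6 for Kdm1a and 41.8 for Ehmt2 to 0.655 for Setdb2. The MLL/SET1 enzymes lay low and close together, between 2.38 (Setd1b) and 6.97 (Kmt2b), and the PRC2 core between 3.09 (Ezh2) and 10.4 (Suz12). Of the 5 most abundant members on this scale 4 fell with Dek silenced, and Kdm1a was not called. In silenced wells Prmt1 came to 37.9, below Kdm1a (49.5), while Setd7 and Kmt5a both came to 29.4, from 9.001 and 12.1 in scrambled wells.

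**Figure D3:**
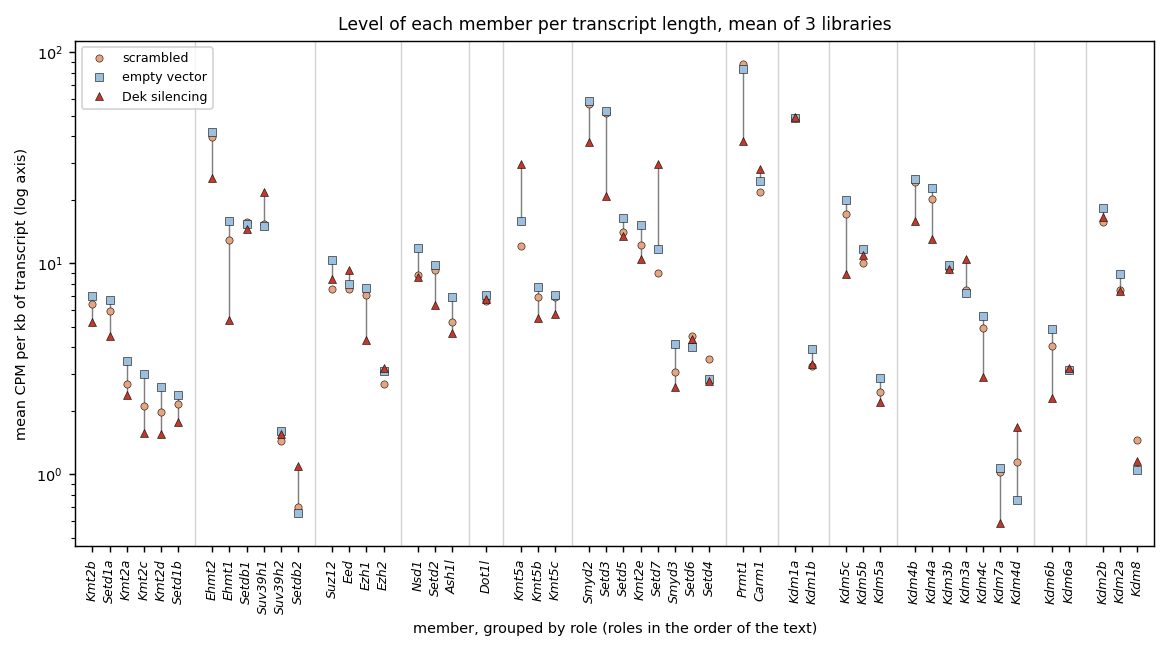
Mean CPM per kb of transcript (log axis, 3 libraries per point) of the 50 members, grouped by role along the x axis, in scrambled, empty vector and Dek-silenced wells; grey lines join the empty vector and silenced means. The levels span 0.655 (Setdb2) to 82.9 (Prmt1) in empty vector wells, and Setd7 and Kmt5a climb to 29.4 in silenced wells.

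Dek overexpression left these genes without a called change. Of 14089 genes tested 1 was called, Dek itself, a share of 0.0071%, and 0 of the 50 members were called by edgeR, DESeq2 or limma-voom. Log2FC ran from −0.31 (Kdm4d) to 0.30 (Setd4), with SE from 0.052 to 0.37 and a median of 0.004, and the lowest adjusted p was 0.625. At an unadjusted p under 0.05 stood 1 member, beside 6.6% of all genes. That was Dot1l, at 40.0, 41.6 and 37.5 CPM with Dek overexpressed and 48.8, 48.7 and 47.9 CPM in empty vector wells (log2FC −0.28, SE 0.068, unadjusted p = 0.000926, adjusted p = 0.625).

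The groups did not overlap for Dot1l, Kdm1a, Kmt2a, Kmt2d and Ezh1, 5 of 50 members (10.0%) beside 11.7% of all genes. For the genes that moved most under silencing, overexpression gave small values with small errors: Setd7 −0.03 (SE 0.065), Setd3 −0.02 (SE 0.053), Ehmt1 0.002 (SE 0.057), Kmt5a −0.01 (SE 0.065) and Prmt1 0.02 (SE 0.068).

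The difference between the responses was tested in a fit of all 12 libraries. The silencing response minus the overexpression response passed for 24 members, 7 higher and 17 lower, which is 48.0% beside 43% of all 14604 genes (20.4% higher and 22.7% lower). Setd7 gave 1.74, Kmt5a 1.295, Setd3 −1.29, Ehmt1 −1.27 and Prmt1 −1.24, all with an adjusted p of 8.15e-09 or less. Dot1l, called in neither response, passed here with 0.31 (adjusted p = 0.0230), as did Setd4 with −0.65 (adjusted p = 0.0206) and Kdm4d with 0.86 (adjusted p = 0.0460). Of the 6 MLL/SET1 enzymes Setd1a alone passed (−0.37, adjusted p = 0.00372).

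The controls, scrambled hairpin and empty vector, also differed in these genes. Between them 22 members were lower in scrambled wells and 0 were higher, which is 44.0% beside 43.1% of all 14096 genes, of which 21.3% were higher and 21.8% lower. Hairpin, promoter, vector design and experiment (labelled Dek silencing or Dek overexpression) cannot be told apart in this contrast. The values were small, from −0.50 for Kmt2c, −0.46 for Suz12 and −0.44 for Smyd3 to −0.17 for Kdm4a among those called.

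Setd7 (−0.38, adjusted p = 7.58e-05) and Kmt5a (−0.40, adjusted p = 0.000205) were lower in scrambled than in empty vector wells, opposite to their rise in silencing, and Ehmt1, Kdm5c, Kdm6b and Kdm4a were lower in both contrasts. Setd3, Prmt1, Ehmt2, Ezh1 and Kdm4c were not called between the controls. With the offset for GC content and length Ehmt2 was called lower in scrambled wells (−0.18, adjusted p = 0.0052). These contrasts share the scrambled wells.

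Set against the empty vector in place of the scrambled hairpin, the same silenced wells gave 38 called members, 8 higher and 30 lower, beside 67.4% of all 14292 genes (34% higher and 33.5% lower). Without the offset, the 24 lower and 6 higher members kept their direction and call against both controls, which is a comparison of the same silenced libraries. Against the empty vector the rise of Setd7 came to 1.33 and that of Kmt5a to 0.89, and the falls of Setd3, Prmt1 and Kdm5c to −1.32, −1.13 and −1.17. Suz12 and Nsd1, not called against scrambled, fell here by 0.29 and 0.45 on the log2 scale. With the offset for GC content and length this contrast gave 30 called members, 12 higher and 18 lower. Of the calls among all genes in that fit 52.3% were higher. With it 4 called values turned: Nsd1 to 0.23 (adjusted p = 0.00166), Kdm5a from −0.37 to 0.36, Kdm2a to 0.20 and Ash1l to 0.14. Suz12 came to 0.08 (adjusted p = 0.295) and was among the 10 members that lost their call. The others were Carm1 (−0.03), Eed, Kdm2b, Kdm7a (−0.10), Kmt2a, Kmt2e, Kmt5b (−0.12), Setd2 (−0.03) and Setd5.

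**Figure D4:**
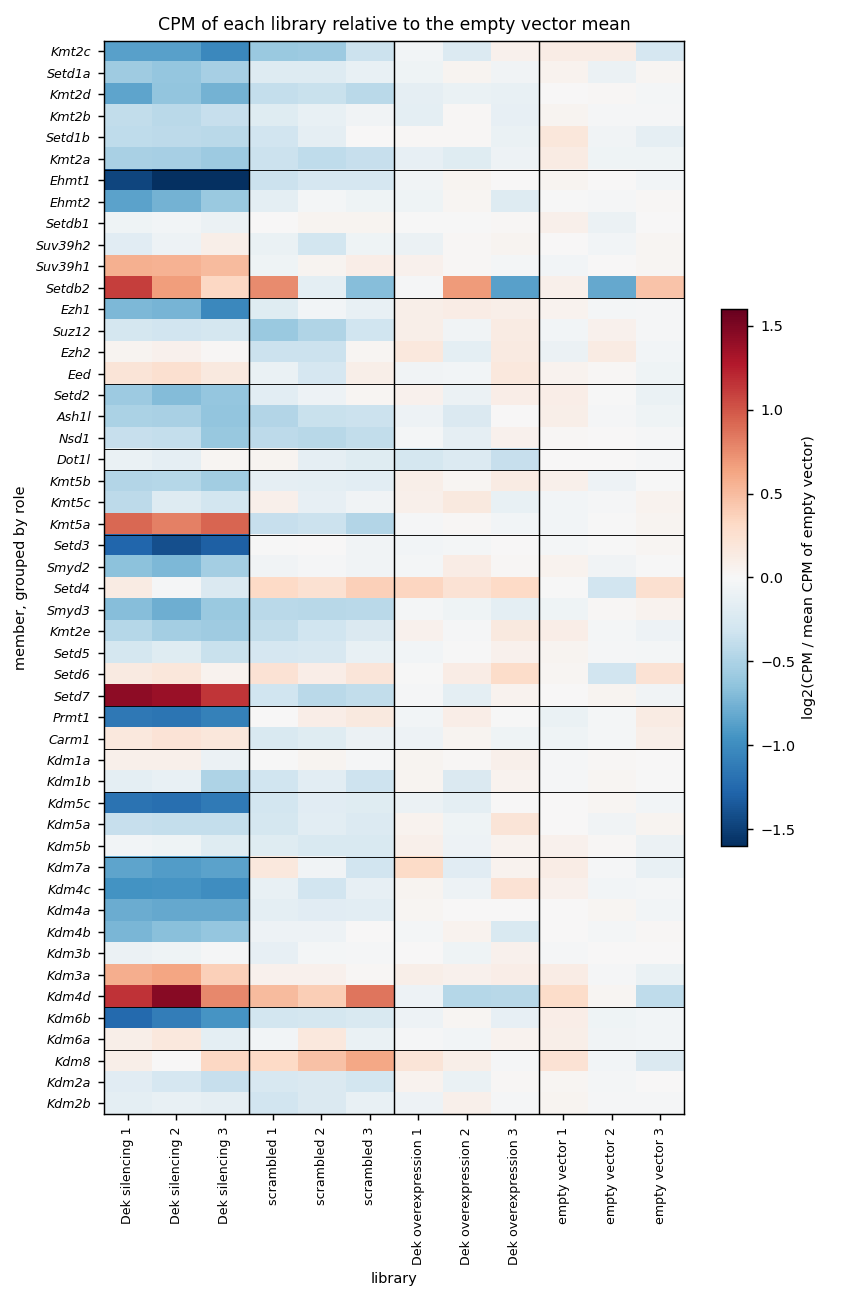
Log2 of CPM in each of the 12 libraries (x axis) relative to the mean of the 3 empty vector libraries, for the 50 members (y axis, grouped by role); red is higher and blue lower. The 3 silenced wells look alike and stand apart, with Setd7 and Kmt5a red and Ehmt1, Setd3, Prmt1 and Kdm5c blue, the scrambled wells are paler with 22 members lower, and overexpression resembles empty vector except for scattered values of low genes such as Setdb2.

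Transcript length moved with both hairpin contrasts. Among all genes the share lower in silencing than in scrambled went from 21.8% for transcripts of up to 2000 bases to 44.5% over 8000 bases, and the share lower in scrambled than in empty vector went from 4.42% to 65.9%. Of the 12 members over 8000 bases 8 were lower in each contrast, and of the 3 up to 2000 bases 1 was lower in the first and 0 in the second. The 24 members that fell with Dek silenced had a median length of 6468 bases, the 6 that rose 3218 and the 20 not called 4822.5.

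An offset for GC content and length left 18 of the 24 lower and all 6 higher calls of the silencing contrast in place, and 5 members gained a call: Kdm5b (0.30), Suz12 (0.297), Nsd1 (0.20) and Kdm2a (0.14) higher and Setd4 (−0.48) lower. Between the controls 14 members were called with the offset, 5 higher and 9 lower, while 52.3% of the calls among all genes were higher. Of the 22 lower ones 7 kept their call, 14 lost it, and Kdm5a turned from −0.22 to a called 0.21 (adjusted p = 0.0321). The 7 that kept it were Carm1, Ehmt1, Kdm2b, Kdm4a, Kdm6b, Kmt5a and Suz12, and none of the MLL/SET1 enzymes was among them. The other 6 of the 14 calls with the offset were new. Kdm3a, Kdm6a, Kdm7a (0.41) and Setd2 were higher in scrambled wells, and Ehmt2 (−0.18) and Smyd2 were lower. All 12 leading genes kept their calls against scrambled with the offset. Setd7 gave 1.85, Kmt5a 1.24, Setd3 −1.33, Prmt1 −1.34, Ehmt1 −1.20 and Kdm5c −0.91. Kdm6b gave −0.82, Ehmt2 −0.74, Ezh1 −0.72, Kdm4c −0.68 and Kdm4a −0.67. Kdm7a, at −0.83 without the offset, gave −0.55 with it (adjusted p = 0.00701), the smallest change of the 12. Against the empty vector with the offset, Kdm7a came to −0.10 (adjusted p = 0.483) and was not called. The part of transcript length in the change of any single member was not tested.

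**Figure D5:**
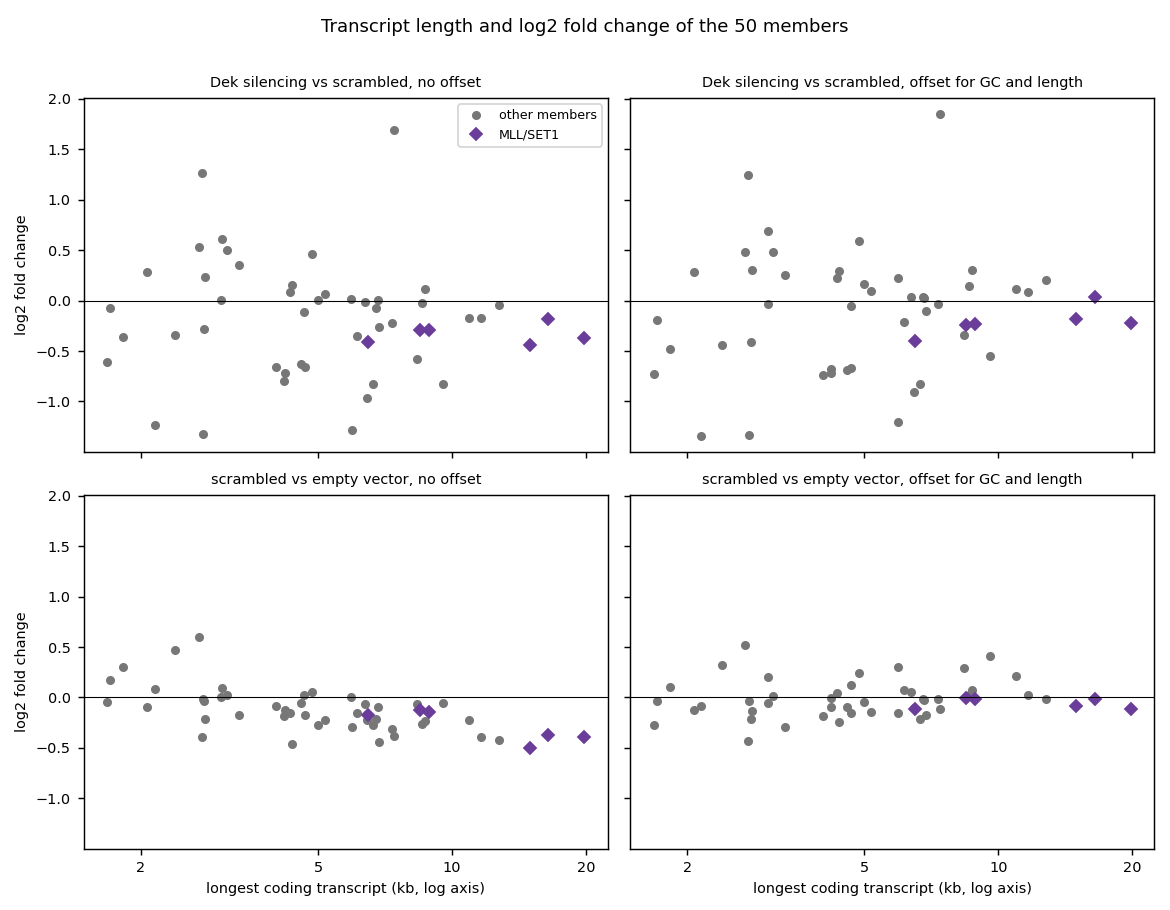
Length of the longest coding transcript (x axis, kb, log axis) against log2 fold change (y axis) of the 50 members, for silencing against scrambled (top) and scrambled against empty vector (bottom), without (left) and with (right) an offset for GC content and transcript length; diamonds are the 6 MLL/SET1 enzymes. Without the offset all 6 diamonds lie below 0 in both contrasts, and with it Kmt2a reaches 0.04 in silencing.

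The sequence that the hairpin targets in Dek offers a further description of these genes. It contains the heptamer AAGAGGA, and it was singled out in earlier work on these data once results for every heptamer were known. Of the 50 members 11 carry it in an annotated 3′ UTR (GENCODE vM21), beside 17.1% of 13428 genes with a 3′ UTR. Of all genes with the heptamer 43.2% were lower and 17.8% higher in silencing, against 26.4% and 28.1% of those without. Of the 11 members 6 were lower (54.5%) and 1, Setd7, was higher, and of the 39 without it 18 were lower (46.2%) and 5 higher. Scrambled against empty vector wells, neither with the Dek hairpin, leaned the same way. There 31% of all genes with the heptamer were lower and 16% higher, against 20.7% and 22.7% of those without. Of members, 45.5% with it and 43.6% without it were lower there. The scrambled hairpin, as printed in the paper, itself holds AAGAG, a part of the heptamer, but not the whole of it. The parts of that stretch and of transcript length in these shares were not tested.
The heptamer (in capitals) is shown with 10 bases on each side, 5′ to 3′, on GRCm38, first in the coding sequence of Dek (chr13:47099371-47099397, minus strand), then in the members with it among the 12 leading genes, to let the context be compared with the target.
Dek target: cgaactcgtgAAGAGGAtcttgaactt
Setd7 (chr3:51519447-51519473, minus): gcctcctgcaAAGAGGActgaatagtt
Setd3 (chr12:108107000-108107026, minus): cagcggagaaAAGAGGAggcacccttg
Ehmt1 (chr2:24791852-24791878, minus): acatatgtccAAGAGGAgctggaggta
Ezh1 (chr11:101191916-101191942, minus): ctgaaggaggAAGAGGAgagtggaaga
Ezh1 (chr11:101197856-101197882, minus): ggagataggaAAGAGGAgaagaaaaag
Kdm4c (chr4:74405570-74405596, plus): tggcctttatAAGAGGAaattttttgc
Kdm4c (chr4:74405592-74405618, plus): tttgctcttgAAGAGGAattcatatga
Kdm7a (chr6:39138679-39138705, minus): cacagagatcAAGAGGAgctgaggctt
Kdm7a (chr6:39139184-39139210, minus): gtttttctcaAAGAGGAattagtatag
The longest run shared with the Dek window around these sites was 7 to 9 bases, the heptamer included, with 9 at the second Kdm4c site. Prmt1, Kdm5c, Kdm6b, Ehmt2, Kdm4a and Kmt5a, the other 6 of the 12 leading genes, hold no such heptamer in the annotated 3′ UTR. A match is a description of letters and not evidence that the hairpin acted there, which was not tested.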

How the data were processed

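RNA was sequenced from 12 wells, 4 groups of 3. The deposited values are the authors' estimated counts per gene, not normalized and 38.6% of them not whole numbers. The authors' processing notes name Salmon, DESeq2 and mm10 without versions, and their methods name fastp, STAR and mm10; whether reads were counted by strand is not given in the sources used here. Estimated counts were rounded. Genes passing filterByExpr were tested on the whole table with TMM scaling and edgeR's robust quasi-likelihood test (edgeR 4.0.16, R 4.3.3), with Benjamini-Hochberg adjustment over all genes tested and a call at an adjusted p below 0.05. All 50 members passed the filter in every comparison. Comparisons held only their own 6 libraries, except the difference of responses, which used all 12. CPM used TMM factors of all 12 libraries, and transcript length, GC content and 3′ UTRs came from GENCODE vM21 (GRCm38), with gene positions from RefSeq. A gene's length was that of its longest coding transcript. Intervals and SE cover the spread between wells.

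Members, gene lists, markers and ratios were chosen with earlier results of these data known. The rule for genes given library by library was Dek and the 12 called members with the largest absolute log2FC and no overlap between groups. Values of other members are given where they belong to the same class. Up to 3 genes per direction were named from each list of partners. No 2 libraries of the same group agreed within sampling noise, and pairs across groups were not checked. The test was tested on simulated data, where false calls exceeded the nominal rate in every two-group comparison and small changes were often missed, most often in silencing against scrambled. Only a small share of genes was changed in those data, whereas 54.7% were called in silencing against scrambled, so the simulated rates may not carry over. Alternatives were DESeq2 1.42.0 (size factors and Wald test), scaling by library size, limma-voom (limma 3.58.1), no filter, a filter of 5 CPM reached by 3 libraries, a joint fit of the 12 libraries, a block for replicate number, leaving out each library, and an offset for GC content and length. Figures were made with matplotlib 3.10.9.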

Additional observations from a re-analysis of the deposited data

How the results depend on the processing

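Of the 30 members called in silencing against scrambled, 22 held their direction and call in all 15 alternatives, and 8 did not: Eed, Ash1l, Setd1b, Kmt2a, Kmt2c, Kmt5c, Kmt2e and Smyd3. The count was 24 in DESeq2, 28 with library-size scaling and 25 to 29 when single libraries were left out, with 25 without scrambled replicate 2 and without silencing replicate 2. The share called among all genes moved too. It was 43.5% in DESeq2, 56.2% with library-size scaling and 46.2% to 54.3% with single libraries left out, beside 54.7% in the main fit. Leaving out 1 well ended the call of Eed (each well but scrambled replicate 3, adjusted p = 0.0553 to 0.176), Kmt2a (each but silencing replicate 1, 0.0611 to 0.0866), Ash1l and Setd1b (scrambled 2 or 3, silencing 2 or 3, 0.0591 to 0.130 and 0.0604 to 0.139), Kmt5c (scrambled 1 or 3, silencing 1 or 3, 0.0583 to 0.101) and Smyd3 (scrambled 2 or 3, silencing 2, 0.0639 to 0.0895). It gave a call to Setdb2 without scrambled replicate 1 (1.09, adjusted p = 0.0102), Kdm4d without scrambled replicate 3 (0.67, 0.0432) or silencing replicate 3 (0.70, 0.0208), Kdm5b without silencing replicate 3 (0.16, 0.0314) and Setd4 without silencing replicate 1 (−0.45, 0.0367). Of the 39 members without the heptamer, an alternative added after the data had been seen, 23 were called. Among all genes without it 28.1% were higher and 26.4% lower. With the offset for GC content and length 8 values in silencing changed sign. Of these 4 were called with or without it, Nsd1 to 0.20 (adjusted p = 0.00595), Ash1l to 0.086, Kmt2a to 0.039 and Kdm2a to 0.14 (adjusted p = 0.0465), and 4 were called in neither case, Kdm5a to 0.11, Setd5 to 0.04, Kdm3b to 0.03 and Kdm1a to −0.04. The members called between the controls went from 22 to 14. Leaving out libraries gave 20 to 23 members between the controls, 34 to 37 in silencing against empty vector, 22 to 25 in the difference of responses and 0 under overexpression. The replicate block gave 33 members (8 higher, 25 lower) in silencing and 8620 genes in place of 7790. The numbers share no stated origin. Same-numbered silenced and scrambled wells deviated together with r = 0.30, 0.13 and 0.07. Silenced well 2 correlated better with scrambled well 3 (0.15). Well 1 of each group went against wells 2 and 3 of the other group, with r from −0.233 to −0.118. The main test took no account of any such shared structure, and the block is given as an alternative.

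With 3 wells per group, the scarce members Setdb2, Kdm8 and Kdm4d carried SE of 0.19 to 0.34 in silencing, so log2 changes of that order were not detectable at this depth. With a single hairpin against Dek, loss of Dek and other effects of that hairpin cannot be told apart.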
